A study of Mus musculus with 18 samples.

Results

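The enzymes that split glucose to pyruvate and lactate, and those that rebuild glucose in the reverse direction, exist in mammals as families of isozymes encoded by separate genes. Transcripts of 39 such mouse genes were compared between liver, brain and testis and between control animals and animals under chronic restraint stress. The genes were chosen by symbol, as glycolytic and gluconeogenic enzymes and 3 glucose transporters, and all 39 were found among the 34932 genes of the deposited table. The study used long-term confinement of mice as a model of lasting psychological stress and sequenced RNA from 3 control and 3 stress libraries in each of the 3 tissues, 18 libraries in all. The other groups are labelled only as control. No allele, drug or other agent is named for any group, and no strain, age or length of restraint is given in the sources used here. Replicates are described as biological, and the sample codes recur across tissues, so the tissues come from the same animals as far as those codes show. The tissue called brain, after the sample labels, is named hippocampus in the extraction text.

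Glycolysis phosphorylates glucose, splits the sugar phosphate into a pair of triose phosphates and harvests ATP and NADH on the way to pyruvate, which lactate dehydrogenase can reduce to lactate. Gluconeogenesis, a task of liver and kidney, shares the reversible steps and bypasses the irreversible ones with pyruvate carboxylase, phosphoenolpyruvate carboxykinase, fructose-1,6-bisphosphatase and glucose-6-phosphatase. Brain is a heavy consumer of glucose and makes almost none. Sperm cells carry their own set of glycolytic isozymes, several of them encoded by genes or retrogenes that are switched on only in the germ line.

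Depth was 29.95 to 35.1 megacounts per library in liver, 32.08 to 36.5 in brain and 27.85 to 33.48 in testis. Summed markers of 3 cell types were high in the labelled tissues. Hepatocyte markers summed to at least 66630 CPM in every liver library and neuron markers to at least 4639 CPM in every brain library. Spermatid markers summed to at least 9910 CPM in every testis library. Other sums were not specific to a tissue. In liver, astrocyte markers summed to 960 to 1666 CPM and Sertoli cell markers to 1486 to 1699 CPM, although their median marker was at most 1.41 and 0.751 CPM. Choroid plexus markers, which share Ttr with the hepatocyte list, summed to 4902 to 8543 CPM there. Some libraries stood apart within their group. Choroid plexus markers summed to 529 CPM in stress brain replicate 2 and 348 CPM in stress brain replicate 3, against at most 14.5 CPM in the other brain libraries. Stress testis replicate 2 had 1672 CPM of Sertoli cell markers against 969 to 1052 CPM in the other testis libraries. Its spermatocyte markers summed to 598 CPM against 889 to 984 CPM. The median Sertoli marker was 31.35 CPM in control testis and 31.19 CPM in stress testis, each marker taken at its median over 3 libraries. Such a median does not register a rise in 1 library, so it does not show how many markers rose there. Stress brain replicate 3 has a sample code with the control prefix in 1 label, against its title and column, and stayed in the stress group. In such bulk tissue, fewer cells of a type and less RNA per cell cannot be told apart.

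The 3 tissues used different isozymes at most steps. Levels between genes are compared below as deposited FPKM, which are counts scaled by gene length and library total, and the share of an isozyme is its percentage of the summed level of all isozymes of its step in the same library. Shares also count 9 isozyme genes outside the 39, such as Slc2a4 and Aldoart2. The tests between tissues used edgeR's quasi-likelihood test on the counts of the 3 control libraries of each tissue, with a call at a Benjamini-Hochberg adjusted p under 0.05 over all genes tested. Of 37 members tested in control liver against control brain, 15 were higher and 20 lower in liver, where 80.1% of all genes tested passed, 34.4% higher and 45.6% lower. Of 38 tested in liver against testis, 18 were higher and 18 lower in liver, with 88.5% of all genes passing, 34.5% higher and 54% lower. Of 34 tested in brain against testis, 16 were higher and 15 lower in brain, with 88.1% of all genes passing, 41.2% higher and 47% lower. Calls between tissues were therefore the rule for all genes, and the sizes and levels carry more than the counts. The 3 comparisons share control libraries, so they are not independent of each other.

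The scaling between tissues matters for the small differences. With edgeR's TMM factors the median log2 difference over all genes was -0.33 for liver minus brain, -0.93 for liver minus testis and -0.20 for brain minus testis, and members are to be read against those shifts. With library size alone the median for liver minus brain was -1.37. On that scale Tpi1, Pgk1, Eno1, Eno3 and Hk3, which TMM put higher in liver than in brain, had log2 differences of -0.46, -0.53, -0.49, -0.55 and -0.07, so their direction between these tissues is not settled by these data. On the FPKM scale Tpi1, Pgk1 and Eno1 were also lower in all liver libraries than in any brain library.

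**Figure D1:**
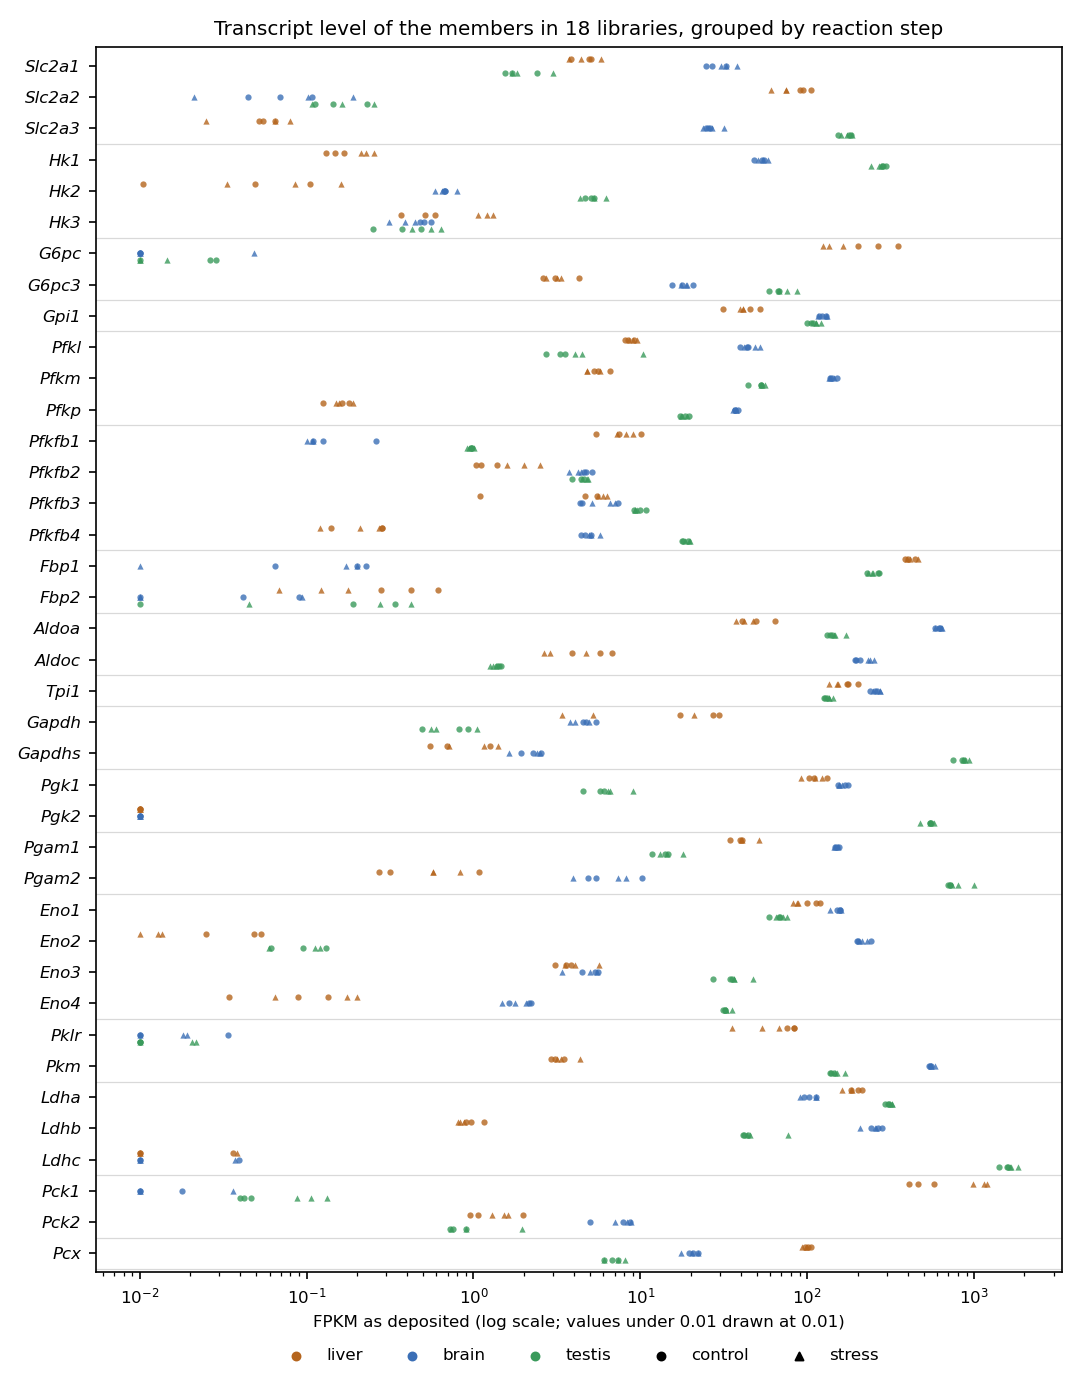
Deposited FPKM (log axis) of the 39 genes in each library, with liver in brown, brain in blue and testis in green, circles for control and triangles for stress libraries, and grey lines between reaction steps. Pgk2 and Ldhc lie between 472 and 1832 FPKM in testis and at most 0.0391 FPKM in the other tissues, while Gpi1 lies between 31.4 and 131 FPKM in every library.

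Entry of glucose was divided among 3 facilitative transporters, with Slc2a2 leading in liver, Slc2a1 in brain and Slc2a3 in testis. Slc2a2 encodes GLUT2, the low-affinity transporter of hepatocytes and insulin-secreting cells. Its FPKM were 90.6, 105 and 94.2 in control liver and 60.5, 74.9 and 75.01 in stress liver, and at most 0.191 in brain and 0.254 in testis. It made 92.7 to 95.9% of the transporter level in liver. Slc2a3 encodes GLUT3, a high-affinity transporter of neurons and sperm. Its FPKM were 153, 182 and 179 in control testis and 173, 159 and 185 in stress testis, 23.7 to 31.8 across the brain libraries and at most 0.0800 in liver. In testis it made 97.7 to 98.8% of the step, the rest being Slc2a1, Slc2a2 and Slc2a4. Slc2a1 encodes GLUT1, the transporter of the blood-brain barrier and astrocytes. Its FPKM were 24.8, 27.0 and 32.8 in control brain and 38.1, 32.8 and 30.3 in stress brain, against 3.72 to 5.79 in liver and 1.55 to 2.99 in testis. In brain Slc2a1 and Slc2a3 were close: Slc2a1 made 48.4 to 61.1% of the step and led Slc2a3 in 5 of 6 libraries. Slc2a1 was lower in liver than in brain by a log2 difference of -1.57 (adjusted p = 3.34e-05) and higher in brain than in testis by 3.60 (adjusted p = 1.1e-07).

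Hexokinases trap glucose as glucose-6-phosphate. Hk1, the isozyme that binds mitochondria and serves most cells that depend on glucose, led in brain and testis. Its FPKM were 53.3, 55.2 and 47.9 in control brain and 50.8, 58.3 and 53.99 in stress brain. In testis they were higher, at 294, 286 and 279.7 in control testis and 275, 239.6 and 269.6 in stress testis. Liver had only 0.131 to 0.254 FPKM of Hk1, a log2 difference of -7.42 against brain (adjusted p = 1.29e-08) and -10.16 against testis (adjusted p = 1.76e-09). Hk2, the insulin-responsive muscle isozyme, reached 4.34 to 6.18 FPKM in testis, 0.587 to 0.796 in brain and at most 0.162 in liver. Hk3, typical of white blood cells, stayed at or under 1.31 FPKM in every library of the 3 tissues.

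Glucose-6-phosphatase, which reverses the hexokinase step, also had different leading genes in liver and in the other tissues. G6pc, the catalytic subunit with which liver frees glucose into the blood, had FPKM of 352, 201 and 265 in control liver and 124, 134 and 164 in stress liver, and at most 0.0486 in brain and 0.0285 in testis. G6pc3, a broadly expressed relative, led in both other tissues, with 59.3, 67.6 and 66.5 in control testis and 75.2, 87.0 and 67.7 in stress testis. Its FPKM were 17.6, 20.8 and 15.4 in control brain and 19.0, 18.6 and 17.6 in stress brain, and 2.59 to 4.31 in liver. Gpi1, the only gene of the phosphoglucose isomerase step, had 31.4 to 52.4 FPKM in liver, 116 to 131 in brain and 99.95 to 120.3 in testis, and its difference between brain and testis did not pass (log2 -0.07, adjusted p = 0.464).

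Phosphofructokinase-1 commits sugar to glycolysis, and its 3 subunits assemble into mixed tetramers. The step was low in liver, where Pfkl, the liver-type subunit, had FPKM of 8.06, 9.16 and 8.44 in control liver and 9.08, 8.60 and 9.54 in stress liver and 55.7 to 65.8% of the step. Pfkm, the muscle-type subunit, led in the other tissues. Its FPKM were 151, 141 and 137 in control brain and 146, 136 and 138 in stress brain, and in testis they were 44.1, 52.6 and 53.1 in control testis and 53.6, 55.6 and 53.1 in stress testis. Pfkp, the platelet type, had 35.7 to 38.6 FPKM in brain, 17.4 to 19.6 in testis and at most 0.189 in liver. The record of Pfkp shares 748 bases at 100% identity with its neighbour Pitrm1, so part of its count may belong to that gene. All 3 subunits were lower in liver than in brain, by log2 differences of -1.27, -3.59 and -6.86.

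The 4 bifunctional Pfkfb enzymes make or remove fructose-2,6-bisphosphate, the signal that switches phosphofructokinase-1 on and fructose-1,6-bisphosphatase off. Pfkfb1, the form known from liver, led there with FPKM of 10.1, 7.41 and 5.39 in control liver and 7.21, 9.04 and 8.19 in stress liver. Pfkfb4, known from testis, led there with 17.7, 18.1 and 19.3 in control testis and 18.6, 19.4 and 19.8 in stress testis. Brain had no clear leader: Pfkfb3 led in 3 of 6 libraries with 30.4 to 43.4% of the step, and its FPKM were 4.45, 4.34 and 7.38 in control brain and 6.54, 5.14 and 7.05 in stress brain. Pfkfb2, the heart form, lay between 1.04 to 2.49 FPKM in liver, 3.73 to 5.16 in brain and 3.91 to 4.88 in testis. In liver the share of Pfkfb1 ranged from 46.1 to 80.3%, and its highest share came from control replicate 1, in which Pfkfb3 had 1.09 FPKM against 4.65 to 6.28 in the other 5 liver libraries.

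Fructose-1,6-bisphosphatase runs the opposing reaction. Fbp1, the liver enzyme, had FPKM of 402, 387 and 442 in control liver and 461, 393 and 409.7 in stress liver. It was also abundant in testis, with 228, 268 and 266 in control testis and 243, 248.7 and 231 in stress testis, and at most 0.227 in brain. The difference between liver and testis passed at a log2 of 1.44 (adjusted p = 4.68e-06). Testis thus had transcript for this bypass, but at most 0.0285 FPKM of G6pc and 0.133 of Pck1. Fbp2, the muscle isozyme, did not exceed 0.616 FPKM in any library.

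Aldolase cleaves fructose-1,6-bisphosphate. Aldoa, the muscle and general form, led in brain with FPKM of 620.1, 613 and 580.4 in control brain and 580.0, 636 and 643 in stress brain. Aldoc, the brain form and a marker of astrocytes, came next there with 195, 206 and 193 in control brain and 251, 232 and 239 in stress brain, or 23.9 to 30.1% of the step. In testis the germ cell aldolase retrogene Aldoart2 (not among the 39) had FPKM of 218, 239.9 and 238 in control testis and 266, 281 and 247 in stress testis and 52.1 to 56.5% of the step. There Aldoa had 132 to 169 FPKM and Aldoart1 53.0 to 76.3. In liver Aldoa had 37.4 to 63.9 FPKM and Aldoc at most 6.75. Aldoc was higher in brain than in testis by a log2 of 6.82 (adjusted p = 3.69e-10). Tpi1, which interconverts the triose phosphates and has no second gene here, had 134 to 202 FPKM in liver, 237 to 275 in brain and 127 to 143 in testis.

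From glyceraldehyde-3-phosphate to 2-phosphoglycerate, testis was led at all 3 steps by a gene that led in neither liver nor brain. Gapdhs, the sperm-specific glyceraldehyde-3-phosphate dehydrogenase, is anchored to the fibrous sheath of the sperm tail. Its FPKM were 743, 845 and 873 in control testis and 935, 881 and 853 in stress testis, or 99.88 to 99.94% of the step, and at most 2.53 in brain and 1.41 in liver. That share of Gapdhs leaves out counts on Gapdh pseudogenes, which are given below. The log2 difference was -9.18 for liver minus testis (adjusted p = 8.26e-09) and -8.81 for brain minus testis (adjusted p = 3.69e-10).

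Phosphoglycerate kinase makes the first ATP of the pathway. Pgk1 is the X-linked somatic gene, and Pgk2 is an intronless autosomal retrocopy that takes over in male germ cells. Pgk1 had FPKM of 175, 168 and 153 in control brain and 154, 154 and 162 in stress brain. In liver it had 109.8, 132 and 102 in control liver and 122, 92.0 and 111 in stress liver, and in testis 4.52 to 9.02. Pgk2 had 545, 544 and 553 in control testis and 543, 472 and 574 in stress testis. It had 0 counts in all 12 liver and brain libraries. Against a floor of 3 counts over the 3 control libraries of a tissue, its 871 CPM in control testis were at least 29361-fold higher than in liver and at least 29778-fold higher than in brain. Pgk1 was higher in liver than in testis by a log2 of 5.15 (adjusted p = 7.43e-09).

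Because the pair shares a function and divides the tissues, the 250 bases before each RefSeq start (GRCm38.p6) are shown, 5′ to 3′ on the gene's strand, with every CpG in capitals.
Pgk1, chrX:106186850-106187099, plus strand: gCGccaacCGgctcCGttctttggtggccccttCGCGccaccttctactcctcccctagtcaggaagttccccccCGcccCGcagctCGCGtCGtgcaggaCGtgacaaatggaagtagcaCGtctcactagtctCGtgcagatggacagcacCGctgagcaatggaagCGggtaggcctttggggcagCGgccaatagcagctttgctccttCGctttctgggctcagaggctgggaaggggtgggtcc
Pgk2, chr17:40208610-40208859, minus strand: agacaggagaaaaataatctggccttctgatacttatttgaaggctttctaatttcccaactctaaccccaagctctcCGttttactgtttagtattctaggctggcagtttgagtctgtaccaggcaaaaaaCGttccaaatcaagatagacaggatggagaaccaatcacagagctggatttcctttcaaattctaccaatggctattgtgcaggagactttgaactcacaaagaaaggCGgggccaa
These windows held 17 and 3 CpG. In windows of 300 bases, 250 before and 50 after the start, the counts were 24 for Pgk1 and 4 for Pgk2, and the median over 32851 such RefSeq windows was 7, with quartiles of 3 and 20. The somatic gene was above the upper quartile and the germ cell gene below the median.

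Phosphoglycerate mutase showed the same division. Pgam1, the form of most tissues, had FPKM of 150.2, 156 and 148 in control brain and 146, 145 and 152 in stress brain. In liver it had 34.6, 40.7 and 39.5 in control liver and 40.9, 40.1 and 51.1 in stress liver, and in testis 11.7 to 17.9. Pgam2, named for muscle, had 714, 701 and 713 in control testis and 805, 995 and 739.9 in stress testis, or 97.95 to 98.4% of the step. Brain had 3.93 to 10.3 FPKM of Pgam2 and liver at most 1.08. Skeletal muscle markers summed to only 0.898 to 2.18 CPM in the testis libraries, with 1 of 6 at 0 in all control libraries and 0 of 6 at 0 in all stress libraries. The 300-base windows of Pgam1 and Pgam2 held 30 and 1 CpG.

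Enolase, which makes phosphoenolpyruvate, was spread over several genes. Eno1, the general form, led in liver with FPKM of 119, 99.6 and 113 in control liver and 82.0, 86.7 and 87.9 in stress liver and 91.6 to 94.8% of the step. It also led in testis with 58.9, 67.3 and 68.8 in control testis and 71.1, 76.1 and 65.1 in stress testis, but with 45.3 to 50.2%. Eno2, the neuronal enolase used as a marker of neurons, led in brain with 199.7, 200.4 and 241 in control brain and 211, 203 and 228 in stress brain. Eno1 held 37.8 to 42.4% there. In testis Eno3, the muscle form, had 27.4 to 47.0 FPKM, and Eno4, an enolase needed for sperm motility, had 31.4 to 35.5. Eno4 was lower in liver than in testis by a log2 of -7.79 (adjusted p = 5.4e-09). Eno1 shares 1736 bases at 99.5% identity with Eno1b, so reads may be split between them. Eno1b itself varied between 0.798 and 15.3 FPKM among testis libraries.

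Pyruvate kinase closes glycolysis with a second ATP. Pklr, the liver and red cell gene, had FPKM of 83.5, 83.6 and 76.1 in control liver and 35.6, 67.8 and 53.8 in stress liver and at most 0.0339 in brain and 0.0217 in testis. Pkm, the gene of the muscle and general forms, had 542, 538 and 552 in control brain and 549, 554 and 583 in stress brain. In testis its FPKM were 145, 138 and 137 in control testis and 152, 167 and 148 in stress testis, and in liver 2.92 to 4.34. Pkm was lower in liver by a log2 of -6.39 against brain (adjusted p = 1.66e-08).

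Lactate dehydrogenase had a different leader in each tissue. Ldha, the subunit that favours lactate formation, led in liver with FPKM of 213, 182 and 201 in control liver and 183, 162 and 186 in stress liver, or 99.4 to 99.6% of the step. Ldhb, the heart-type subunit that favours lactate oxidation, led in brain with 264, 239 and 282 in control brain and 258, 208 and 255 in stress brain. Ldhc, the germ cell subunit, led in testis with 1403, 1563 and 1593 in control testis and 1640.0, 1832 and 1656 in stress testis, the highest level of any of the 39 genes in any library. Its share there was 80.8 to 82.2%, and elsewhere it was at most 0.0391 FPKM. Testis kept 291 to 323 FPKM of Ldha, and the difference between liver and testis did not pass for that gene (log2 0.15, adjusted p = 0.311), although library size alone put Ldha lower in liver (log2 -0.60, adjusted p = 0.00163). Brain had the lowest Ldha, 89.9 to 113 FPKM, against 208 to 282 of Ldhb.

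Ldha and Ldhc are neighbours on the same chromosome, so the same 250-base windows are shown for them, again with each CpG in capitals.
Ldha, chr7:46845554-46845803, plus strand: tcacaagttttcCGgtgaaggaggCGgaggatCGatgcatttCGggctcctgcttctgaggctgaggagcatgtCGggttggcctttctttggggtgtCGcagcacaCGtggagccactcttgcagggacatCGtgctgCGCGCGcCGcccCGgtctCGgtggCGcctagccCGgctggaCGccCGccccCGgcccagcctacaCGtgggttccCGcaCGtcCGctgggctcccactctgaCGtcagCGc
Ldhc, chr7:46861013-46861262, plus strand: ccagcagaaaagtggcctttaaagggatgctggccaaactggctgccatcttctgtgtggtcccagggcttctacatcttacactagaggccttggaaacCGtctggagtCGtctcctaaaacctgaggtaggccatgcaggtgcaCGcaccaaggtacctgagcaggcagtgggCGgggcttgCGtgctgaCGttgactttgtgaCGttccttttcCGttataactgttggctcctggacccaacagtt
The windows held 25 and 8 CpG. Over 300 bases the counts were 30 for Ldha and 9 for Ldhc at these starts, 13 and 3 at the second RefSeq start of each gene. The 9 at the first start of Ldhc lay above the median of 7 over all windows. Low counts were not shared by all genes high in testis: Eno4 held 24 and Pfkfb4 16, while Gapdhs held 4 and 1 at its starts. A CpG count is a description of the sequence, and no methylation was measured.

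Gluconeogenesis starts from pyruvate with pyruvate carboxylase, a mitochondrial enzyme. Its gene Pcx had FPKM of 101, 105 and 97.5 in control liver and 93.5, 99.2 and 98.5 in stress liver, 17.6 to 22.2 in brain and 6.05 to 8.10 in testis. Pck1, the cytosolic phosphoenolpyruvate carboxykinase, had 459, 407 and 573 in control liver and 1147, 1195 and 982 in stress liver and at most 0.0362 in brain and 0.133 in testis. It made 99.6 to 99.9% of the step in liver. Pck2, the mitochondrial form, was the only one of the pair above 1 FPKM in brain, with 7.89, 8.70 and 5.00 in control brain and 8.36, 8.802 and 7.06 in stress brain. It also led in testis, at a low level, with 0.719, 0.750 and 0.900 in control testis and 0.732, 1.94 and 0.896 in stress testis. In liver the leading genes of all 4 bypass steps had 93.5 FPKM or more in every library, a bound set by Pcx itself. Pcx was at most 22.2 FPKM in brain and 8.10 FPKM in testis.

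**Figure D2:**
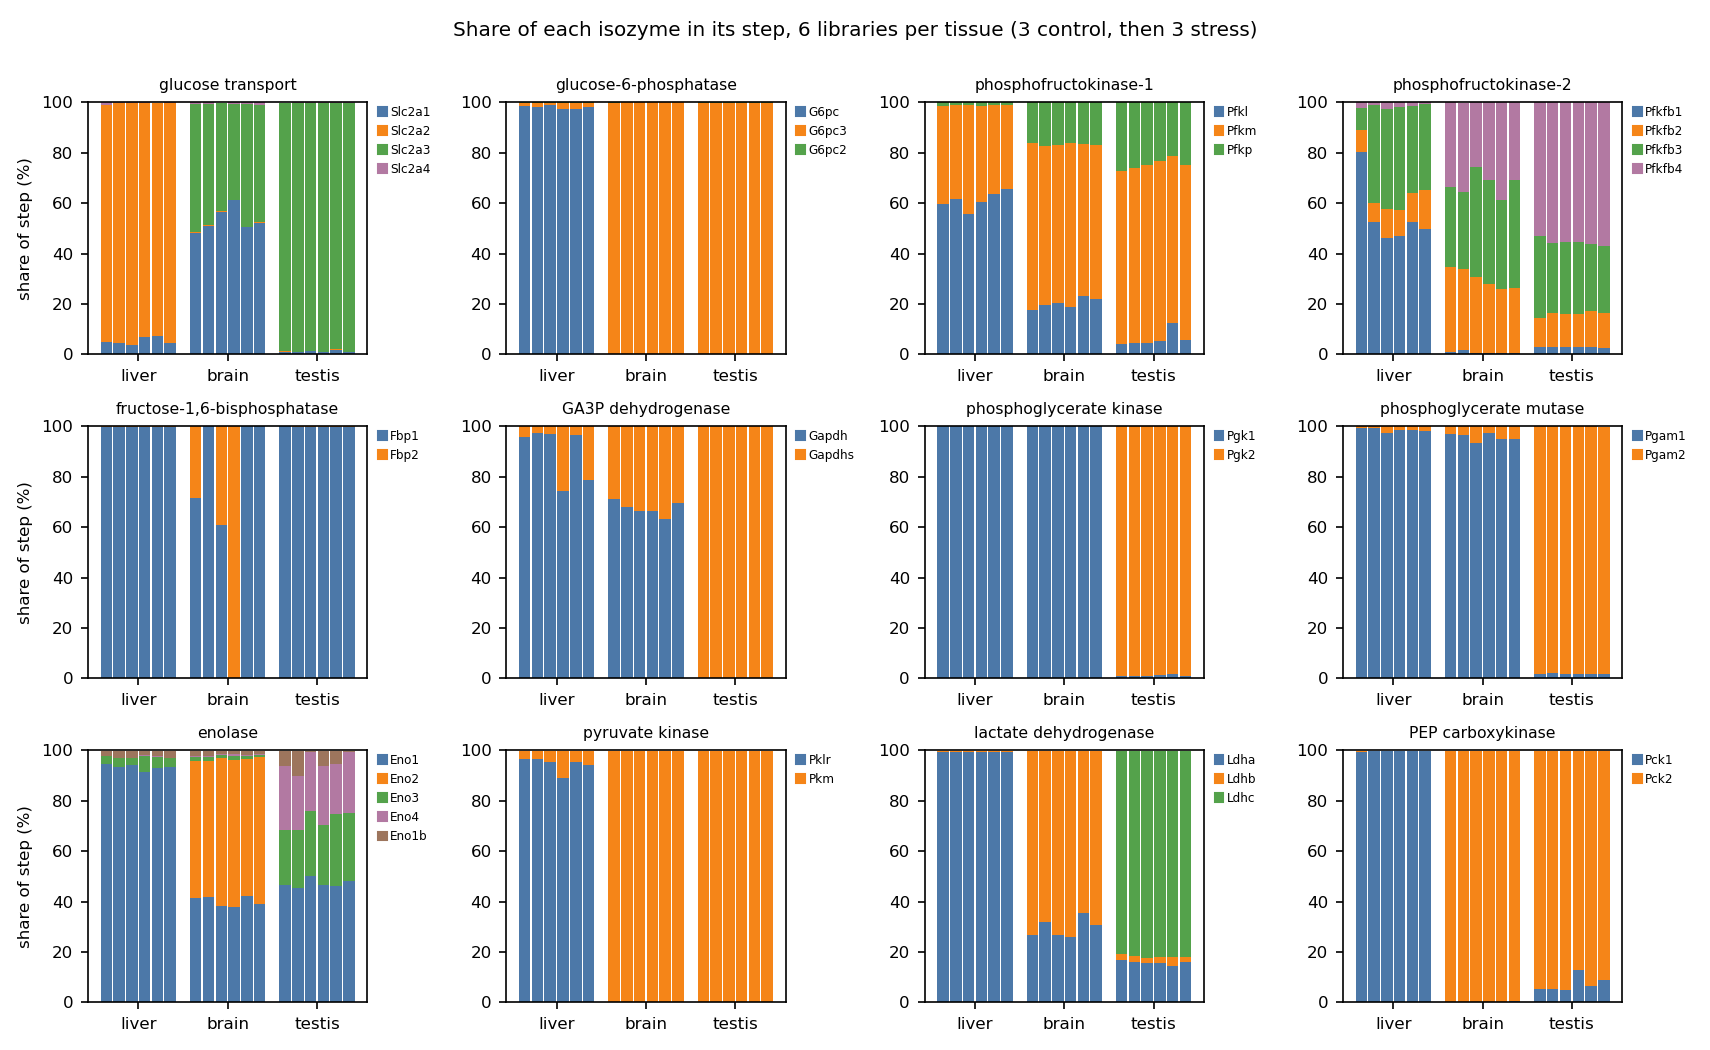
Stacked bars give the percentage of each isozyme in the summed level of its step, for the 3 control and then the 3 stress libraries of each tissue. In testis Gapdhs, Pgk2 and Pgam2 each fill at least 97.95% of their step in every library, and Ldhc fills 80.8 to 82.2%, while enolase is divided among several genes.

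Some leaders named above depended on how the shares were computed. With only the 39 genes in the denominator, Aldoa in place of Aldoart2 led aldolase in testis. With counts not divided by gene length, the leader changed for transport in brain (Slc2a3), phosphofructokinase-1 in testis (Pfkp) and the Pfkfb step in liver and testis (Pfkfb3 in both).

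Gapdh, the housekeeping dehydrogenase, was low for such a gene in the deposited table, at 0.491 to 1.04 FPKM in testis. Its FPKM were 29.6, 27.4 and 17.3 in control liver and 3.39, 20.9 and 5.19 in stress liver. In brain they were 4.75, 5.42 and 4.55 in control brain and 4.95, 4.08 and 3.78 in stress brain. The table holds 89 pseudogenes that share at least 95% identity over at least 300 bases with a Gapdh transcript. Counts on these pseudogenes were 26.9 to 38.5% of the sum of Gapdh and pseudogene counts in control liver. They were 69.8, 30.3 and 62.0% in stress liver replicates 1, 2 and 3, 67.7 to 75.0% in brain and 84.8 to 90.4% in testis. The value of Gapdh is thus uncertain, and the sources used here do not say how reads with several matches were counted. The shares of Gapdh and Gapdhs leave these pseudogene counts out and carry the same limit. In testis the pseudogenes summed to 18.5 to 28.5 CPM, beside 1196 to 1505 CPM of Gapdhs. Summed with its pseudogenes, an alternative chosen after seeing the data, Gapdh was higher in liver than in brain by a log2 of 2.21 in place of 3.38. It was higher in brain than in testis by 1.21 in place of 2.41. All 3 tissue differences passed in both forms.

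**Figure D3:**
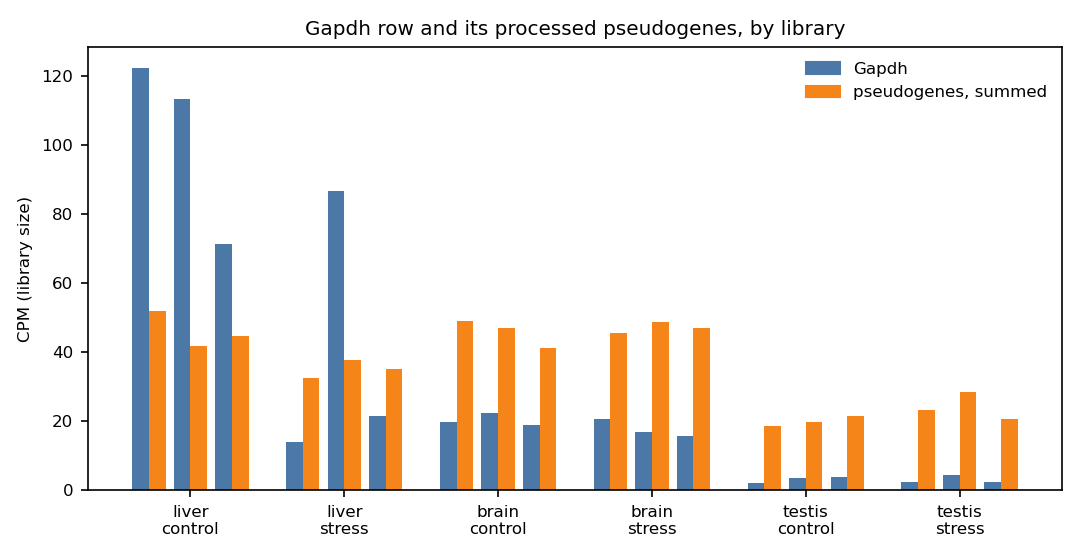
CPM scaled by library size for Gapdh itself and for the sum of its 89 pseudogenes, in each of the 18 libraries. In liver the pseudogene sum stays between 32.4 and 51.9 CPM while Gapdh itself ranges from 14.01 to 122 CPM, and in brain and testis the pseudogene sum exceeds Gapdh in every library.

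Stress in liver raised the transcripts of 2 of the 39 genes by the edgeR test, Pck1 and Hk3, and no member passed as lower. The question was how restraint stress changes the RNA of each tissue, and values in this comparison are CPM scaled by TMM factors. Of 36 members tested, 2 were higher and 0 lower (5.56%), where 1.63% of 14253 genes tested passed, 0.982% higher and 0.645% lower. DESeq2 put 3 members lower, G6pc, Slc2a2 and Pklr, and limma on TPM put none lower. At an unadjusted p under 0.05 there were 11 members, 3 higher and 8 lower, against 17.2% of all genes. The groups did not overlap for 12 members, against 23% of all genes. The median log2 change of the tested members was -0.03, and that of all genes -0.01. Pgk2, Eno2 and Ldhc were too low in liver to be tested.

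Pck1, whose transcript is induced by glucagon, cyclic AMP and glucocorticoid hormones and repressed by insulin, had 1606, 1415 and 1943 CPM in control libraries and 3914, 4112 and 3302 CPM in stress libraries. Every stress library was above every control library. The mean rose from 1655 ± 267 to 3776 ± 423 CPM (SD, n = 3 per group), which is 1.19 ± 0.16 (SE) on the log2 scale (edgeR adjusted p = 0.0119). Leaving out stress liver replicate 1 moved the adjusted p to 0.0531 at a log2 change of 1.17, and the other 5 fits with a library left out kept it between 0.014 and 0.0392.

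G6pc went the other way in the same libraries, with 868, 493 and 632 CPM in control libraries and 298, 326 and 388 CPM in stress libraries. All stress libraries were below all control libraries, and control replicate 1 was the highest. The means were 664 ± 189 and 337 ± 46.1 CPM (SD, n = 3 per group), and the log2 difference of -0.98 ± 0.21 (SE) missed the threshold with an edgeR adjusted p of 0.0519. It was under the threshold in DESeq2 (adjusted p = 9.53e-05), without the filter on low counts (0.000587), in a single fit over all 18 libraries (0.0246) and without control liver replicate 2 (0.0476). It was over it in the fits without any other library (0.0594 to 0.156), in limma on TPM (0.0787), with DESeq2's size factors (0.0508) and with Gapdh summed with its pseudogenes (0.0518). The enzymes of phosphoenolpyruvate formation and of glucose release thus stood on opposite sides of 0, 1 past the threshold and 1 just short of it.

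The 250 bases before the RefSeq starts of these genes (GRCm38.p6) are shown because both are textbook targets of hormone control that lay on opposite sides of 0 here. Capitals mark CGTCA in Pck1, the reverse complement of TGACG, the core of the cyclic AMP response element, and TATAAA in G6pc.
Pck1, chr2:173152823-173153072, plus strand: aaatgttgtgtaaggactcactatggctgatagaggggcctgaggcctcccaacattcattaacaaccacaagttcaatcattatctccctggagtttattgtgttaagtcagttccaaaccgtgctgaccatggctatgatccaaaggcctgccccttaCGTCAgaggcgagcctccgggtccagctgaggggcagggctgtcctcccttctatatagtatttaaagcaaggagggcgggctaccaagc
G6pc, chr11:101367466-101367715, plus strand: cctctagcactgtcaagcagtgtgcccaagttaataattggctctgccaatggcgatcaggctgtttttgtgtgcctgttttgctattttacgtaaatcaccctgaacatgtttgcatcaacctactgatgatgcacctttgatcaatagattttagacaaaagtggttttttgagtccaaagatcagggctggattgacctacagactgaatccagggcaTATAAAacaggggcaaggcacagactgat
The match in Pck1 begins 90 bases before the start and that in G6pc 29 bases before it. Searched on both strands, TGACG lay in 20.8% and TATAAA in 13.6% of the 32851 windows of 300 bases. TGACG also lies within the longer TGACGTCA, which was in 1.8% of windows. Different letters are marked in each window, only exact letters were searched for, and near matches are not marked. The windows therefore do not compare the genes for the same motif. Such matches are descriptions of these letters, and no binding was measured.

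Of the bypass genes, only Pck1 passed in liver. Fbp1 had 699, 669 and 745 CPM in control libraries and 780.1, 671 and 684 CPM in stress libraries, with overlapping groups (log2 0.01 ± 0.13 (SE), edgeR adjusted p = 0.97). Pcx had a log2 difference of -0.08 ± 0.12 (SE), and Pck2 one of 0.12 ± 0.30 (SE).

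Hk3 rose from a low level, with 1.92, 1.37 and 2.14 CPM in control libraries and 4.80, 3.93 and 4.32 CPM in stress libraries. Each stress library was at least 3.93 CPM and each control library at most 2.14 CPM. Its log2 change was 1.26 ± 0.26 (SE), at an edgeR adjusted p of 0.0479. The call did not hold in any of the 6 fits with a library left out (adjusted p 0.0613 to 0.176), nor in limma on TPM (0.0502). Most macrophage markers moved with it: their sum was 64.2 to 74.2 CPM in control liver and 128 to 155 CPM in stress liver. Of the markers, 7 of 7 were detected, 0 were at 0 and 4 of 7 passed as higher. Their log2 difference was above 0 for 6 and below 0 for 1. The part of such cells in the Hk3 value was not tested. Hk1 had 1.46, 1.13 and 1.24 CPM in control libraries and 1.79, 1.93 and 2.13 CPM in stress libraries, higher in every stress library, but did not pass (log2 0.61 ± 0.29 (SE), adjusted p = 0.327).

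Among the regulators of the phosphofructokinase step, Pfkfb2 had 8.24, 7.65 and 9.90 CPM in control libraries and 11.5, 14.6 and 17.7 CPM in stress libraries. All stress libraries were above all controls, at a log2 difference of 0.77 ± 0.19 (SE) and an edgeR adjusted p of 0.0784. It was under the threshold in DESeq2 (0.0137), without the filter (0.0156) and in the fit over 18 libraries (0.00836). Pfkfb3 differed by a log2 of 0.65 ± 0.44 (SE) (adjusted p = 0.495), with control replicate 1 far below the other 5 libraries. Pfkfb1, Pfkfb4, Pfkl, Pfkm and Pfkp had log2 differences from -0.25 to 0.07 and adjusted p values of at least 0.523.

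Several genes of glucose uptake and of the lower pathway were lower in all stress libraries of liver without passing. Slc2a2 had 255, 294 and 257 CPM in control libraries and 166, 207 and 203 CPM in stress libraries (log2 -0.49 ± 0.14 (SE), edgeR adjusted p = 0.116). Pklr had 276, 275 and 244 CPM in control libraries and 115, 220.0 and 171 CPM in stress libraries (log2 -0.65 ± 0.21 (SE), adjusted p = 0.158). Its groups were apart, with stress replicate 1 the lowest and stress replicate 2 the nearest to control. The record of Pklr shares 711 bases at 100% identity with the neighbouring channel gene Hcn3, so the counts of both are uncertain. Hcn3 had 56.3, 78.2 and 71.4 CPM in control liver and 19.1, 52.3 and 34.0 CPM in stress liver, the same order of stress libraries as Pklr.

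Eno1 had 655, 544 and 602 CPM in control libraries and 439, 468 and 463 CPM in stress libraries (log2 -0.39 ± 0.13 (SE), edgeR adjusted p = 0.158). Tpi1 had 455, 388 and 382 CPM in control libraries and 333, 297 and 332 CPM in stress libraries (log2 -0.35 ± 0.13 (SE), adjusted p = 0.217). Both separated the groups by small steps. Eno1 was under the threshold only in the fit over 18 libraries (0.0306), of the settings run. Fbp2, the muscle bisphosphatase, had 0.379, 0.565 and 0.807 CPM in control libraries and 0.160, 0.0907 and 0.229 CPM in stress libraries, separate groups at a level under 1 CPM (log2 -1.85 ± 0.56 (SE), adjusted p = 0.138).

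Aldoc and Gapdh had unadjusted p values of 0.0278 and 0.0412 with overlapping groups. Gapdh had 125, 115 and 70.7 CPM in control libraries and 13.9, 86.9 and 21.04 CPM in stress libraries. Stress replicates 1 and 3 were low, and stress replicate 2 lay within the control range (log2 -1.35 ± 0.57 (SE), edgeR adjusted p = 0.265). Without stress liver replicate 2 its log2 difference was -2.57 (adjusted p = 0.00394). Summed with its pseudogenes the difference was -0.99 ± 0.34 (SE), adjusted p = 0.174. Pgk1, Pgam1, Ldha, Ldhb and Pkm had log2 differences from -0.28 to 0.18 and adjusted p values of at least 0.506. Of these, Ldha and Ldhb had groups that did not overlap, lower in every stress library. Ldha had 550 to 649 CPM in control and 484 to 544 CPM in stress libraries, and Ldhb 1.43 to 1.80 and 1.27 to 1.38 CPM. Aldoa, Gapdhs, Pgam2, Eno3, Eno4, Slc2a1, Slc2a3, Hk2, G6pc3 and Gpi1 had adjusted p values of at least 0.421.

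**Figure D4:**
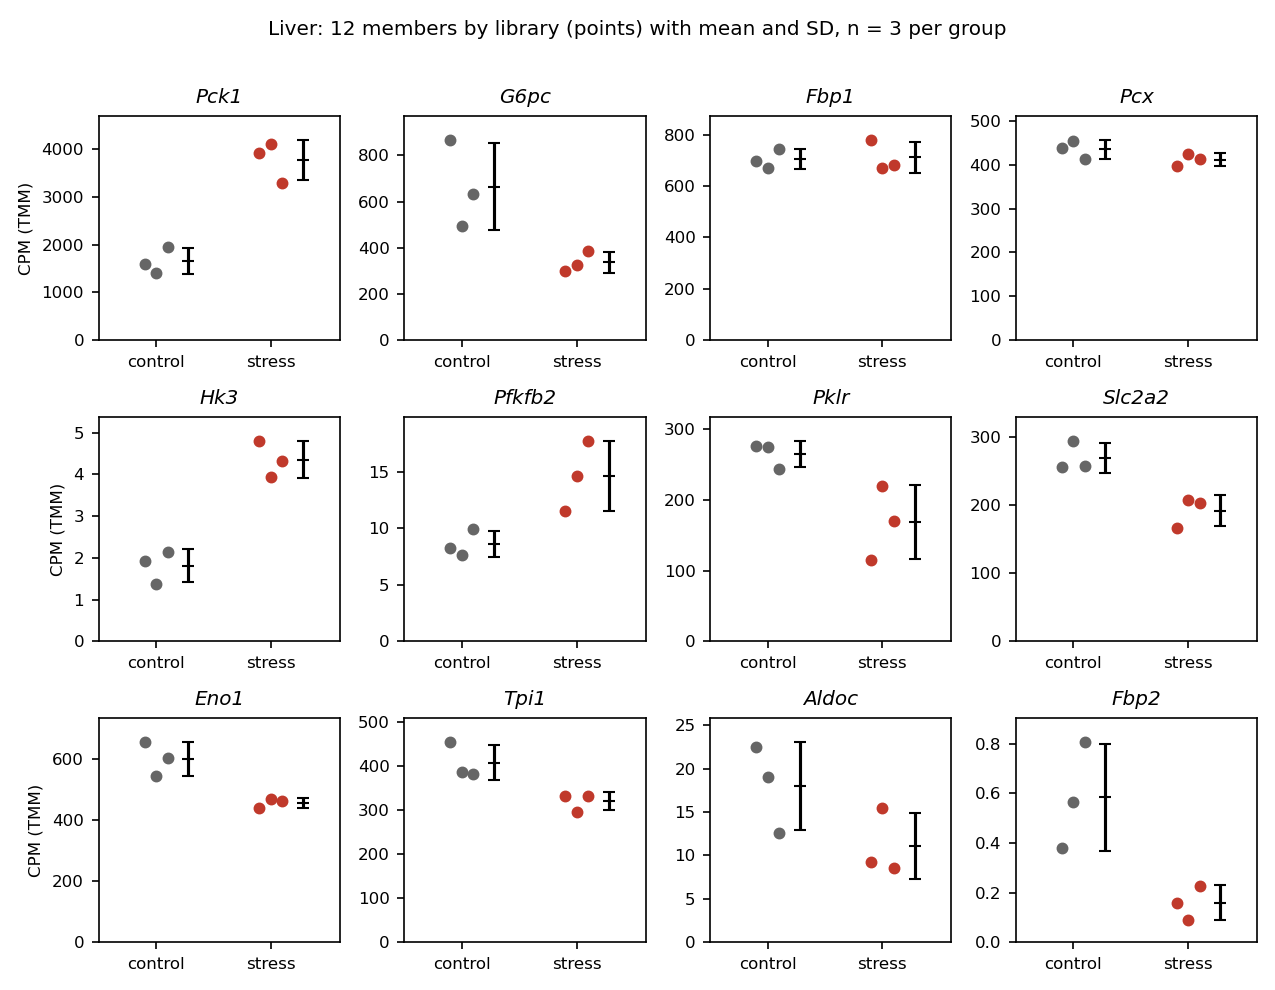
TMM-scaled CPM of 12 genes in each liver library (points, grey for control and red for stress), with the mean and SD of 3 libraries beside them and linear axes from 0. Stress points lie above control points for Pck1, Hk3 and Pfkfb2, below them for G6pc, Pklr, Slc2a2, Eno1, Tpi1 and Fbp2, and overlap for Fbp1, Pcx and Aldoc.

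Other genes of glucose metabolism were counted on a separate list of 41, of which 40 were in the table. In liver 35 were tested and edgeR called 0, 12 had an unadjusted p under 0.05 (1 higher, 11 lower), and the median log2 difference of the list was -0.19. Over all genes tested in liver, 17.2% had an unadjusted p under 0.05, and the median was -0.01. Pdk1 and Pdk4, kinases that switch off pyruvate dehydrogenase, had log2 differences of -0.77 (adjusted p = 0.0549) and -1.89 (0.08). Of 15 regulators of the pathway, edgeR called 0 in liver, 5 had an unadjusted p under 0.05 (1 higher, 4 lower) and the median was -0.23. Irs2, the insulin receptor substrate of liver, was nearest to the threshold with a log2 of -1.14 (adjusted p = 0.0511). Pdk1, Pdk4 and Irs2 were named after their values were seen.

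Stress in brain moved none of the 39 genes past the threshold. Of 32 members tested with edgeR, 0 passed, where 1 gene of 17668 (0.00566%) did. DESeq2 and limma on TPM also called 0 members. An unadjusted p under 0.05 was found for 2 members, against 7.54% of all genes, and 4 had groups that did not overlap, against 13.8%. The median log2 difference of the members was -0.02, and that of all genes -0.003. Slc2a2, G6pc, Fbp2, Pgk2, Pklr, Ldhc and Pck1 were too low in brain to be tested.

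Aldoc, the astrocyte aldolase, had the smallest p in brain. It had 637, 672 and 637 CPM in control libraries and 817, 751 and 782 CPM in stress libraries. The lowest stress library was above the highest control library, at a log2 difference of 0.27 ± 0.07 (SE) and an edgeR adjusted p of 0.462. With the replicate number as a block the adjusted p was 0.199, in a fit that called 0 members and 17 higher and 5 lower genes in all. Astrocyte markers summed to 783 to 903 CPM in control brain and 859 to 1027 CPM in stress brain, with 5 of 5 detected and 0 at 0 in all libraries. The part of astrocyte content in the Aldoc value was not tested. Pfkfb2 had 34.2, 33.2 and 37.8 CPM in control libraries and 31.7, 26.8 and 30.7 CPM in stress libraries, lower in every stress library (log2 -0.24 ± 0.10 (SE), adjusted p = 0.658). Hk3 and Pfkfb1 also had separate groups, both lower under stress, at low levels and adjusted p values of 0.729 and 0.773. Slc2a1 had a log2 difference of 0.25 ± 0.13 (SE) with overlapping FPKM groups, and the leading isozymes Hk1, Pfkm, Aldoa, Pgk1, Pgam1, Eno2, Pkm and Ldhb had log2 differences from -0.13 to 0.05. The remaining tested members had adjusted p values of at least 0.741. Of the 35 other pathway genes tested in brain 0 passed and 7 had an unadjusted p under 0.05, and of 13 regulators 0 passed and 1 did.

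Testis gave no call among the 39 genes either. Of 36 members tested with edgeR, 0 passed, where 4 genes of 19915 (0.0201%) did, and DESeq2 and limma on TPM also called 0 members. An unadjusted p under 0.05 was found for 2 members, against 11.7% of all genes. Groups did not overlap for 8, against 20.9%: Pfkl, Pgk1, Aldoa, Eno3 and Ldhc higher, and Hk1, Pfkfb1 and Aldoc lower under stress. The log2 difference was above 0 for 26 members and below 0 for 10, with a median of 0.07 against 0.01 for all genes. On the TPM scale with limma, 11 members changed sign without passing. G6pc, Pklr and Pck1 were too low to be tested.

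Pfkl had 12.6, 14.6 and 15.6 CPM in control libraries and 18.1, 42.4 and 19.8 CPM in stress libraries. Stress replicate 2 stood far above the rest (log2 0.91 ± 0.29 (SE), edgeR adjusted p = 0.422), and without it the log2 difference was 0.40 (adjusted p = 0.372). Pgk1, the somatic kinase, had 10.7, 13.6 and 12.9 CPM in control libraries and 15, 19.0 and 14.3 CPM in stress libraries, again highest in stress replicate 2 (log2 0.38 ± 0.15 (SE), adjusted p = 0.422). Stress replicate 2 was also highest for Ldhb, with 68.9, 69.7 and 65.0 CPM in control libraries and 72.7, 113 and 68.5 CPM in stress libraries, and for Pck2, with 2.56, 2.57 and 3.07 CPM in control libraries and 2.52, 6.19 and 3.04 CPM in stress libraries. The same library had the high Sertoli sum given above, a macrophage sum of 60.9 CPM against 22.7 to 27.9 CPM and a Leydig sum of 487 CPM against 301 to 365 CPM. All listed markers of these 3 cell types were detected, with 0 at 0 in all libraries, and their part in the values was not tested. Of the Sertoli markers, 6 of 6 had a log2 difference above 0 under stress, with a median of 0.23 against 0.01 for all genes. For Leydig markers 1 was above 0 and 4 below, and for macrophage markers 5 were above and 1 below. None of these passed. The Sertoli sum was far above its median marker in both groups, and the list is not specific to testis as a sum.

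No sperm isozyme passed in testis, and their differences were small. Ldhc had 2325, 2485 and 2524 CPM in control libraries and 2626, 2716 and 2613 CPM in stress libraries, with each stress library above each control library but by a log2 of only 0.12 ± 0.08 (SE) (edgeR adjusted p = 0.547). The spermatid marker sum was also higher in every stress library, at 10590, 9910 and 10150 CPM in control and 11840, 13630 and 11550 CPM in stress testis. By gene, 4 spermatid markers had a log2 difference above 0 and 2 below, and 5 of 5 spermatocyte markers were below 0. None of these markers passed. The part of germ cell content in the values of sperm isozymes was not tested. Hk1 had 2633, 2455 and 2394 CPM in control libraries and 2378, 1918 and 2298 CPM in stress libraries, lower in every stress library and lowest in stress replicate 2 (log2 -0.18 ± 0.10 (SE), adjusted p = 0.483). Gapdhs, Pgk2, Pgam2, Eno4, Pfkfb4 and Slc2a3 had log2 differences from -0.10 to 0.20 and adjusted p values of at least 0.453. Among the other separate groups, Aldoa differed by a log2 of 0.11, Eno3 by 0.25 (adjusted p = 0.428), Pfkfb1 by -0.08 and Aldoc by -0.16. The remaining tested members had adjusted p values of at least 0.441. Of 37 other pathway genes tested in testis 0 passed and 4 had an unadjusted p under 0.05, and of 12 regulators 0 passed and 3 did, against 11.7% of all genes.

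**Figure D5:**
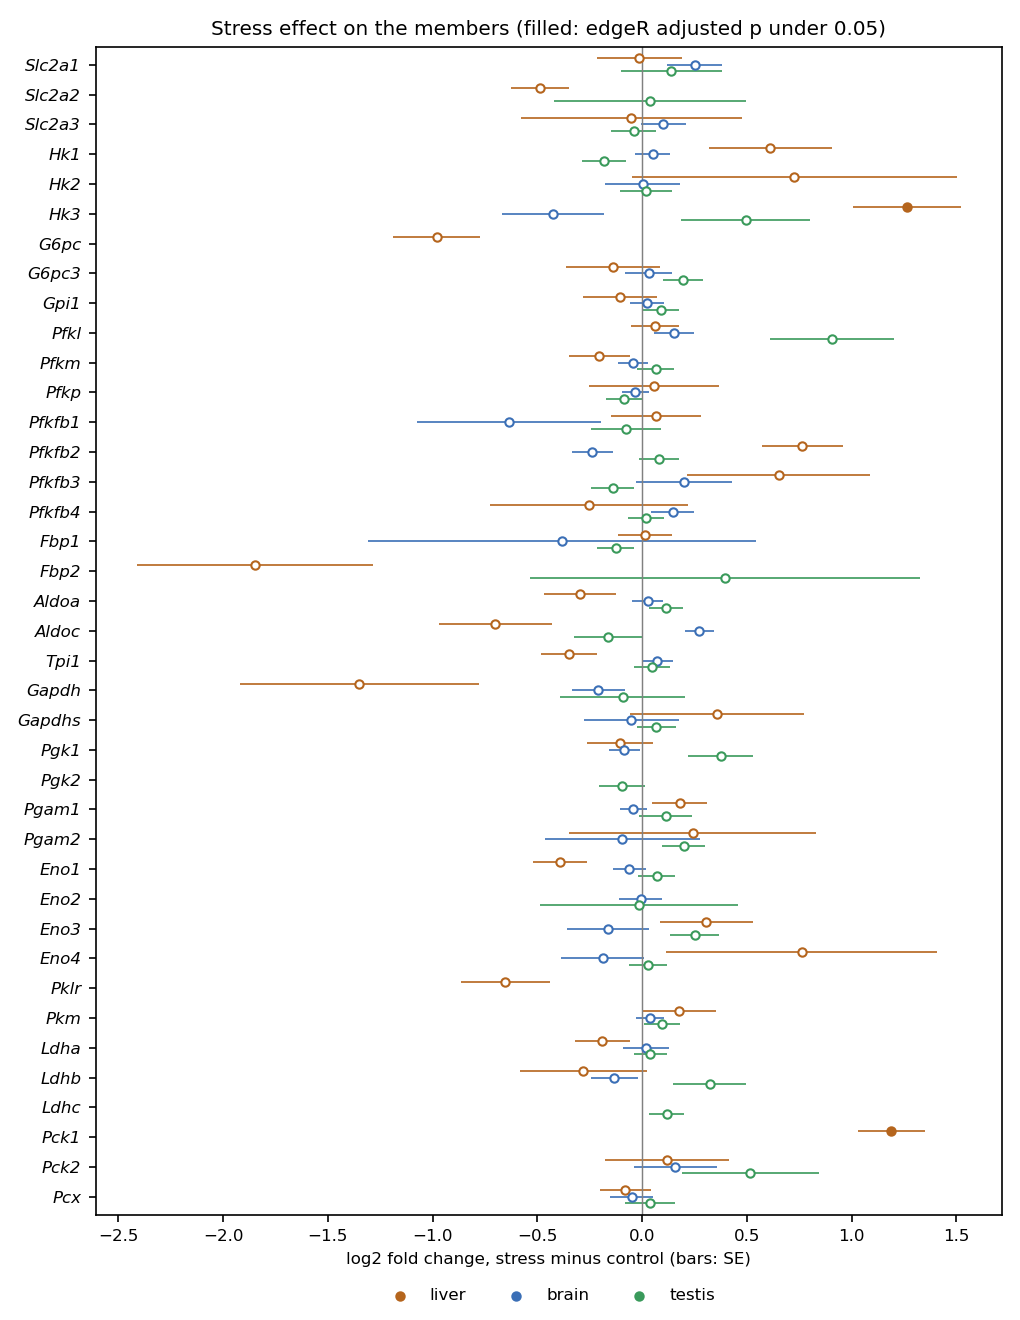
Log2 fold change of stress minus control for each gene in liver (brown), brain (blue) and testis (green), with bars for 1 SE of the edgeR fit and filled points for an adjusted p under 0.05. The only filled points are Pck1 at 1.19 and Hk3 at 1.26 in liver, and most brain and testis points lie close to 0.

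Whether the stress effect differed between tissues was tested as an interaction in edgeR. No member passed: 0 of 37 for liver minus brain (background 0.195%), 0 of 39 for liver minus testis (0.154%) and 0 of 36 for brain minus testis (0%). Unadjusted p values under 0.05 were found for 7, 9 and 4 members in this order, against 11.6%, 13.9% and 9.43% of all genes. DESeq2 called 2, 3 and 0 members. It called many more genes in all than edgeR did. For liver minus brain these were 237 higher and 305 lower of 29505 genes. For liver minus testis they were 351 and 367 of 33086, and for brain minus testis 57 and 24 of 34308. The smallest p among the members was that of Hk3 in liver minus brain, with a difference of 1.69 ± 0.35 (SE) in log2 effect (adjusted p = 0.0794), followed by Pfkfb2 with 1.01 ± 0.22 (SE) (adjusted p = 0.097). For Pfkfb2 every stress library was above the controls in liver and below them in brain. For Pck1 and G6pc the interaction rested on very few counts. Pck1 had 4, 4 and 5 counts in control testis and 11, 13 and 10 counts in stress testis, and G6pc had at most 4 counts in any brain or testis library. Without stress liver replicate 2, Gapdh passed in both liver contrasts (log2 -2.41, adjusted p = 0.00979 against brain, and -2.53, adjusted p = 0.0279 against testis). The liver call of Pck1 and the absence of calls in the other tissues are therefore not shown to differ by a test.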

How the data were processed

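The deposited table gives raw counts, TPM and FPKM per gene and library. The counts are whole numbers, deposited without normalization. The FPKM were made by the authors from the counts, 1 length per gene and the library total. The deposited TPM are the FPKM rescaled to a fixed total per library. A stranded total RNA kit made the libraries, per the labels' protocols. Reads were placed on mm39, per the submitters' processing notes. For the aligner, the counting program, its strand setting and the annotation, nothing is given in the sources used here. Antisense and overlapping genes therefore cannot be told apart from counts alone.

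The 39 members were matched by symbol through GENCODE M21 gene identifiers (GRCm38), which is another build, so no positions are given other than RefSeq promoter windows of GRCm38.p6, in which 38 members matched. All 39 are named: values of every library are given for members that passed under stress or had an unadjusted p under 0.05 with separate groups, and for the leading isozyme in each tissue at steps whose leader differs between tissues. Other members are given by range. The members, lists and alternatives were chosen with earlier results of these data known.

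Tests used edgeR 4.0.16 in R 4.3.3 on all genes that passed its filter (minimum count 10), with TMM factors and Benjamini-Hochberg adjustment at 0.05. Stress was tested within each tissue on 6 libraries, tissues on the control libraries, and differences of effects as interactions on 12 libraries. With 3 against 3 libraries an exact permutation test of a single gene cannot give a two-sided p under 0.1. Alternatives were DESeq2 1.42.0, its size factors, library size alone, no filter, limma 3.58.1 on log2(TPM + 1), a replicate block, each library left out, 1 fit over 18 libraries, and Gapdh summed with its pseudogenes. Shares of the hexokinase and aldolase steps in liver are not reported here. FPKM rather than TPM was used for levels because a single short gene held 2.73 to 16.75% of TPM in testis.

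Replicate numbers were checked for pairing by the correlation of same-numbered control and stress libraries. It was 0.305, 0.167 and 0.439 in brain, against at most -0.019, 0.097 and -0.105 with other numbers. The block therefore stands beside the brain result, but the pairing was read from these libraries alone. No label pairs a control with a stress sample in any tissue. The correlation was 0.187, 0.053 and -0.001 in liver, against at most -0.062, 0.073 and 0.088 with other numbers. In testis it was 0.077, 0.068 and -0.088, against at most 0.126, -0.044 and 0.093. Same-numbered libraries were thus closest only for replicate 1 in liver and replicate 2 in testis, which gave no consistent pairing. The test was checked on simulated data with 200 changed genes, drawn only from genes above a minimum expected count. The recovery rates therefore do not cover members with few counts. The real brain and testis fits called 1 and 4 genes, so their cutoff on the unadjusted p was stricter than in the simulation. In liver it recovered 73% of genes with a true 2-fold change and 95% with a 4-fold change among 14012 genes, in brain 64% and 94% among 17347, and in testis 73% and 100% among 19599. False calls were 9 of 177, 13 of 171 and 15 of 188. Replicates of a group differed beyond counting noise (chi-square over degrees of freedom 4.64 to 114.72), so errors are SD or SE between libraries.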

Additional observations from a re-analysis of the deposited data

How the results depend on the processing

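In liver under stress, the members called higher were 2 and became 3, with Pfkfb2 added, in DESeq2, without the filter on low counts, in the fit over 18 libraries and with the replicate block, 1 with limma on TPM and 0 to 1 with a library left out. The members called lower were 0 and became 3 in DESeq2, 3 without the filter on low counts, 2 in the fit over 18 libraries, 1 with the replicate block and 0 to 1 with a library left out. Over all genes the calls in liver, 140 higher and 92 lower, became 449 and 369 in DESeq2, 450 and 408 without the filter, 388 and 504 in the fit over 18 libraries, 261 and 214 with the replicate block, 90 and 53 with limma, and 15 to 157 and 16 to 134 with a library left out. In brain and testis no member was called under any alternative run. The replicate block called 0 members in brain, and over all genes it called 17 higher and 5 lower there, against 1 and 0 without it. By the labels, control and stress samples share only a replicate number in every tissue. With the block in liver, G6pc had an adjusted p of 0.0401 and Pfkfb2 one of 0.0423.

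Between tissues, members higher in liver than in brain were 15 and became 9 with limma on TPM. Directions turned there for Hk3 (0.97), Tpi1 (0.58), Pgk1 (0.51), Eno1 (0.55) and Eno3 (0.49), whose log2 differences were -0.07, -0.46, -0.53, -0.49 and -0.55 with library size alone and -0.49, -1.25, -1.32, -1.28 and -1.22 with limma on TPM. The share of all calls that were higher in liver than in brain was 43% with TMM, 24.4% with library size and 15.6% with limma. For liver against testis it was 39, 29.9 and 25.5%, and for brain against testis 46.7, 51.1 and 56.7%, all called genes counted. Interactions called 0 members. For liver minus brain, DESeq2 called 2 higher, beside 237 higher and 305 lower over all genes, and leaving out a library called 0 to 1 lower. For liver minus testis, DESeq2 called 2 higher and 1 lower, beside 351 and 367 over all genes, and leaving out a library called 0 to 1 lower. The single call came without stress liver replicate 2 in both and was Gapdh. A block by animal code in the tissue comparisons moved no count of member calls by over 1.5 times. The cause of these shifts was not tested. Counts of 3 libraries a group limit what can be called, and members near 1 CPM, such as Hk3 and Fbp2, have few counts.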
